A study of Mus musculus with 20 samples.

Results

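Genes for making ribosomes, including those for RNA polymerase I, were followed through preimplantation development of the mouse on 20 microarrays. The members were chosen by name: every probe set with exactly 1 gene symbol that matched the Utp, Nop, Nol, Noc, Rrp, Rrs, Rrn, Polr1, Exosc, Tsr, Nsun, Bms, Gar or Nhp families. Imp3, Imp4, Krr1, Wdr3, Tbl3, Dkc1, Pum3, Ltv1, Heatr1 and Bop1 were added where the array held them. Utp14a and Utp14b were not taken. This gave 46 genes, read by 76 probe sets, of 9607 genes with 1 symbol on the array, and each gene was represented by its brightest probe set, the one with the highest mean of log2(intensity + 20) over the 20 arrays. Of the 46, 35 have a known role in making ribosomes and are called ribosome-making members here. The name pattern also took in 11 genes whose known role lies elsewhere (Nol3, Nol4, Nol4l, Garem1, Garem2, Garnl3, Garre1, Gart, Nsun3, Nsun4 and Nsun7), and these are described apart. The array, MOE430B, carries only some of the pathway's genes.

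The groups were oocytes, 1-cell embryos, 2-cell embryos, 8-cell embryos and blastocysts, with 4 arrays each. The labels give the stage of each sample and no strain, age, treatment or oocyte maturity. Total RNA was amplified by in vitro transcription in 2 rounds. Nothing in the labels tells if replicates are separate collections of embryos, and p-values then measure the spread between these arrays, which may be technical.

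Ribosomes are built in the nucleolus, where RNA polymerase I transcribes the ribosomal RNA precursor. Rrn3 brings the polymerase to the promoter, the small-subunit processome (Utp proteins, Wdr3, Tbl3, Heatr1, Krr1, Bms1) folds and cuts the precursor around the future small-subunit RNA, and a separate set of factors assembles the large subunit. The mouse oocyte stores ribosomes and maternal mRNA, transcription is largely silent at fertilisation, and the embryonic genome is activated mainly at the 2-cell stage, after which nucleolus precursor bodies turn into working nucleoli.

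Values are linear intensities as the authors deposited them, and they look scaled to a common trimmed mean. The median of an array lay between 67.8 and 80.2 in oocytes, 69.2 and 77.8 in 1-cell embryos, 81.0 and 87.5 in 2-cell embryos, 90.2 and 93.3 in 8-cell embryos, and 83.2 and 90.0 in blastocysts. An intensity is therefore relative to the other RNA on that array; the RNA content of an embryo is not given, and fewer cells of a type and less RNA per cell cannot be told apart. Of 9 markers of 2-cell activation, 4 were on the array. They summed to 223.0 to 277.5 in oocytes and 14588 to 16073 in 2-cell embryos. Their sum was 18010 to 23716 in 8-cell embryos and 701 to 1017 in blastocysts. At the 8-cell stage Obox6 rose, from 7828 ± 800 to 17576 ± 2807, while Ubtfl1, Pramel18 and Ddit4l fell. Of 13 blastocyst markers, 4 were on the array and summed to 342.1 to 559.5 in oocytes and 12498 to 18323 in blastocysts. The 7 oocyte markers summed to 71086 to 85726 in oocytes, 4768 to 5856 in 8-cell embryos and 20973 to 25490 in blastocysts. Of these 7, 6 were lower in the blastocyst than in the oocyte and 1, Khdc3, was higher, at 2305 ± 358 in oocytes and 20822 ± 2274 in blastocysts (adjusted p = 6.33e-11). Of 19 markers of cumulus and granulosa cells, 7 were on the array, and their sum was 3021 to 3637 in 2-cell embryos against 1271 to 2420 at every other stage. That difference lay mainly in Amhr2, read by an x_at probe set, at 167 ± 37.6 in 1-cell and 2053 ± 284 in 2-cell embryos (mean ± SD, n = 4), while 1 of the 6 tested markers rose and 1, Cyp11a1, fell at that step. The part of these marker values in the 2-cell results of the members was not tested. The cumulus marker Ptx3 averaged 24.5 in oocytes and 44.8 in 2-cell embryos, and was too dim to test. The 1 sperm marker on the array, Odf1, passed the test at no step.

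The promoters of 5 genes are shown because the results below turn on these genes: Krr1, Wdr3 and Pum3 were low at the 1-cell stage between higher oocyte and 2-cell values, and Rrn3 and Nol11 rose at the 2-cell stage and hold an E-box. Each is the 250 bases before the annotated start in RefSeq on the build GRCm38.p6, read 5′ to 3′ on the gene's own strand. Capitals mark the E-box CACGTG, bound by Myc and related factors, and the GC box GGGCGG on either strand.
Krr1, chr10:111972445-111972694, plus strand: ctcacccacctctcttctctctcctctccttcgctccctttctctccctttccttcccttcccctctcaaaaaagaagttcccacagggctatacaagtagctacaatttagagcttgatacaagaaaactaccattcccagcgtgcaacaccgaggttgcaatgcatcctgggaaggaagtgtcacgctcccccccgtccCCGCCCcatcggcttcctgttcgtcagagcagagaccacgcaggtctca
Wdr3, chr3:100162408-100162657, minus strand: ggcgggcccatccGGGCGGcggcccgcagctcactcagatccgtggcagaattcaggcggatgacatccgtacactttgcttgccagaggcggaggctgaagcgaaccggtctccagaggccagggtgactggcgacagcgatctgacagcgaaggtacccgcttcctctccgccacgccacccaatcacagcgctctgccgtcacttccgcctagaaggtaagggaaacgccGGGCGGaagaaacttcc
Pum3, chr19:27429909-27430158, minus strand: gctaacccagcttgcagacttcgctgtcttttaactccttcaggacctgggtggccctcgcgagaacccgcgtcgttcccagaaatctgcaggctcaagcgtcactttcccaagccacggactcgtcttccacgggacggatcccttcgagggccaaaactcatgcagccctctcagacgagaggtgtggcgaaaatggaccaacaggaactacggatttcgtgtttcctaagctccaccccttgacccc
Rrn3, chr16:13780449-13780698, plus strand: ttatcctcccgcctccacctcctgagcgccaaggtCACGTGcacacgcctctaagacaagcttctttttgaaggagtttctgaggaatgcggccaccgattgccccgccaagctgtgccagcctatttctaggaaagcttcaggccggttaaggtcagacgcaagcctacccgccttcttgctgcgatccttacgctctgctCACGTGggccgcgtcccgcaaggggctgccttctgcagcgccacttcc
Nol11, chr11:107189382-107189631, minus strand: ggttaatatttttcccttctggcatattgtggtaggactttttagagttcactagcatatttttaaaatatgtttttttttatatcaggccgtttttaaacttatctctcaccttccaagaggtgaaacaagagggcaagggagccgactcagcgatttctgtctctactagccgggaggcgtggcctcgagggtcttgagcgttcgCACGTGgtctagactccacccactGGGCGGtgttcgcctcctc
The Rrn3 promoter held 2 E-boxes, beginning 215 and 48 bases before the start, and the Nol11 promoter held 1 beginning 43 bases before it. The letters of neither motif occur in the Pum3 window. RefSeq promoters were matched for 36 of the 46 members. The E-box was in 6 of 29 ribosome-making members (20.7%), namely Rrn3, Nol11, Imp4, Rrp7a, Utp18 and Utp25, against 6.86% of the 27025 genes in the table and 7.61% of the protein-coding ones. The GC box was in 16 of the 29 (55.2%), against 35.4% of all genes and 45.8% of protein-coding genes. Of the 9 ribosome-making members with a promoter that rose at the 2-cell stage, 2 held an E-box (22.2%, near the 20.7% of the 29). A gene counted when any of its annotated starts had the letters, and Utp25 had the E-box before only 1 of its starts. The motif matches are a description of these letters in this window, not of binding.

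Over the 35 ribosome-making members the levels were lowest in 1-cell embryos and highest in 8-cell embryos, with 2-cell embryos and blastocysts between them. The median of their log2(intensity + 20) values was 8.15, 8.17, 8.18 and 8.48 on the 4 oocyte arrays and 7.92, 7.90, 7.81 and 8.03 on the 1-cell arrays. It was 8.67, 8.47, 8.92 and 9.15 on the 2-cell arrays, 9.11, 9.27, 9.14 and 9.22 on the 8-cell arrays, and 9.09, 8.74, 8.55 and 8.53 on the blastocyst arrays. The 4 arrays of the 1-cell stage all lay below those of every other stage, while 2-cell and 8-cell arrays overlapped. Blastocyst arrays overlapped the 2-cell arrays and lay below all 8-cell arrays. The median over all probe sets other than controls moved far less, from 6.46 at its lowest on an oocyte array to 6.82 at its highest on an 8-cell array. Of the 35, 17 had their lowest stage mean in 1-cell embryos and 15 their highest in 8-cell embryos; over all probe sets other than controls these shares were 23.9% and 30.6%.

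**Figure D1:**
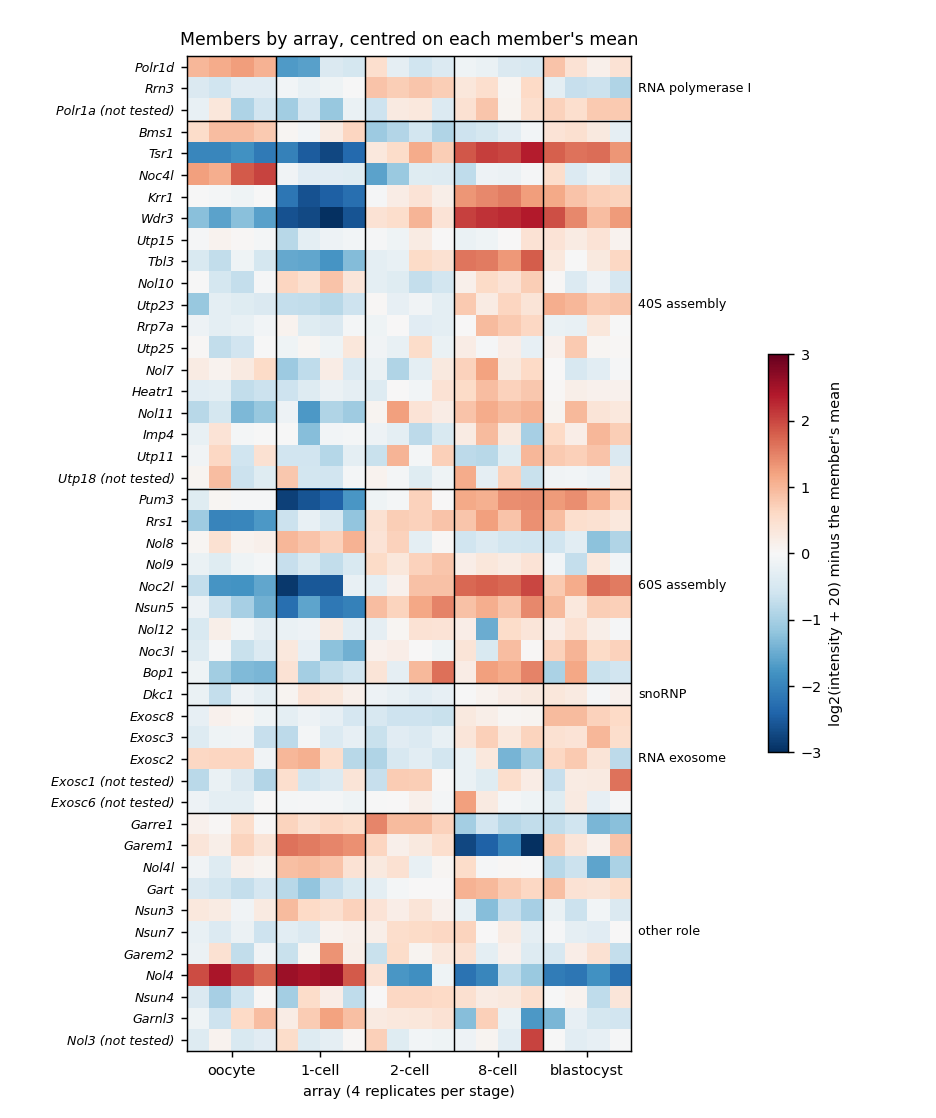
Log2(intensity + 20) of each of the 46 members on each of the 20 arrays (columns, by stage), minus that member's mean over the arrays; rows are grouped by role. Krr1, Pum3, Wdr3 and Tbl3 stand low on all 4 arrays of the 1-cell stage and high on all 4 of the 8-cell stage.

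Consecutive stages were compared with limma over the 15234 probe sets that reached 82.6, the median of all values, on at least 4 arrays, and a call is an adjusted p under 0.05. Of the members, 41 passed this filter, 31 of them ribosome-making. Polr1a, Utp18, Exosc1, Exosc6 and Nol3 did not. A member that passed only through its brightest stage had to differ between stages, so the shares below describe the tested members and are read beside the same share of all tested probe sets. Among all stages together 34 of the 41 members changed, 26 of the 31 ribosome-making ones, against 53.0% of all tested probe sets.

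From oocyte to 1-cell embryo, 4 of the 31 ribosome-making members rose (12.9%, against 2.67% of all tested probe sets) and 7 fell (22.6%, against 4.26%). Those that fell were Krr1, Pum3, Polr1d, Noc4l, Wdr3, Nsun5 and Tbl3, and those that rose were Rrs1, Nol10, Nol8 and Dkc1. The median log2 change over all 35 was -0.25, beside 0.03 over all probe sets other than controls. With quantile normalization the counts were 2 higher and 8 lower. Without 1-cell replicate 2 there were 2 risers, and without the x_at and s_at probe sets, which can read more than 1 transcript, there were 3 fallers. Pum3, Polr1d and Noc4l have no other kind of probe set and drop out there, and the remaining Krr1 probe set was not called (adjusted p = 0.317).

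At the 2-cell stage 13 of the 31 rose (41.9%, against 12.2% of all tested probe sets) and 4 fell (12.9%, against 9.34%). The median log2 change over all 35 was 0.36, beside 0.05. The risers were Wdr3, Tsr1, Nsun5, Krr1, Pum3, Noc2l, Tbl3, Nol11, Rrs1, Nol9, Rrn3, Polr1d and Utp23. Bms1, Nol10, Nol8 and Dkc1 fell. Quantile normalization gave 13 higher and 1 lower, and centring each array on its median gave 11 higher and 6 lower. Without 2-cell replicate 3 the number lower was 2.

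From 2-cell to 8-cell embryo 13 of the 31 rose again (41.9%, against 14.1% of all tested probe sets) and 2 fell (6.45%, against 13.4%). The median log2 change over all 35 was 0.47, beside 0.10. The risers were Wdr3, Tbl3, Tsr1, Noc2l, Krr1, Pum3, Nol7, Nol10, Exosc3, Rrp7a, Heatr1, Exosc8 and Utp23, and Nol8 and Rrn3 fell. The number lower was 1 with any 1 of 6 arrays left out, namely any of the 2-cell arrays, 8-cell replicate 1 or 8-cell replicate 3.

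From 8-cell embryo to blastocyst the direction turned. Of the 31, 2 rose (6.45%, against 7.98% of all tested probe sets), Polr1d and Exosc8, and 8 fell (25.8%, against 6.58%). The median log2 change over all 35 was -0.22, beside -0.07. Those that fell were Tbl3, Rrn3, Nol7, Wdr3, Nol10, Heatr1, Rrp7a and Krr1. The number higher was 1 without any single 8-cell array or without blastocyst replicate 1 or 2, and the number lower was 5 without 8-cell replicate 2. The blastocyst still stood above the oocyte: 15 of the 31 were higher (48.4%, against 21.6%) and 3, Bms1, Noc4l and Nol8, were lower (9.68%, against 16.1%), with a median log2 difference over all 35 of 0.60, beside 0.12.

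**Figure D2:**
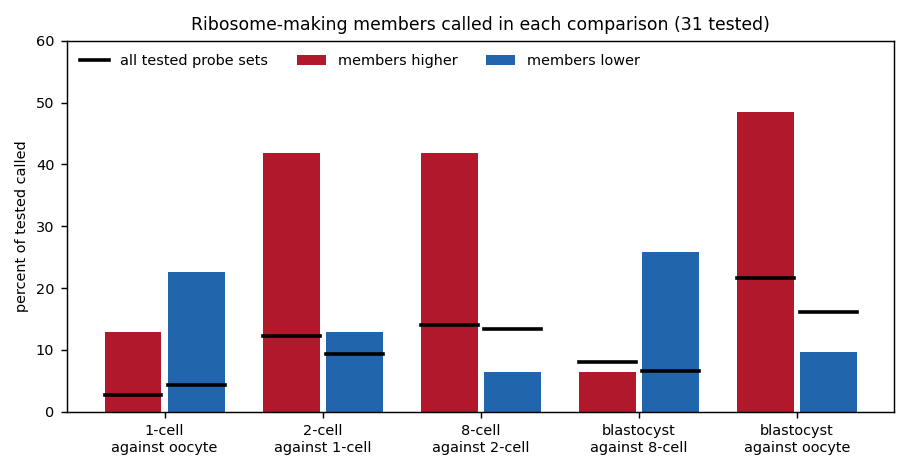
Percent of the 31 tested ribosome-making members called higher (red) or lower (blue) in each comparison; black lines give the same percent of all 15234 tested probe sets. The red bars at the 2-cell and 8-cell steps both reach 41.9%, against lines at 12.2% and 14.1%.

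The RNA polymerase I machinery was represented by Polr1d, a subunit shared with RNA polymerase III, by the initiation factor Rrn3, and by the largest subunit Polr1a. Rrn3 read 495, 438, 532 and 529.7 on the oocyte arrays, 638, 576, 615 and 666 on the 1-cell arrays and 1239, 1137, 1211 and 1133 on the 2-cell arrays. It then read 854, 955, 699.6 and 1036 on the 8-cell arrays and 549.7, 407, 425 and 349 on the blastocyst arrays. All 4 arrays of the 2-cell stage lay above those of every other stage. Rrn3 rose at the 2-cell stage by 0.90 on the log2 scale (SE 0.15, adjusted p = 7.96e-05) and fell into the blastocyst (log2 change -1.005, SE 0.15, adjusted p = 3.47e-05). Its fall at the 8-cell stage was smaller (log2 change -0.42, adjusted p = 0.0442) and missed the threshold without any single 2-cell array, 8-cell replicate 1 or 8-cell replicate 3 (adjusted p = 0.0638 to 0.169; range over its alternatives 0.0239 to 0.316).

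Polr1d ran differently. Its probe set 1447320_x_at read 6380.1, 6875, 7538 and 6564 in oocytes, 957, 1009, 2351 and 2207 in 1-cell embryos and 4526, 2612, 2102 and 2377 in 2-cell embryos. The 8-cell arrays read 2919, 2769, 2354 and 2278 and the blastocyst arrays 5773, 4316, 3509 and 4298. The oocyte arrays lay above all others, and the 1-cell and 2-cell arrays overlapped. The fall at the 1-cell stage was 4.51-fold on the intensity + 20 scale (log2 change -2.17, SE 0.26, adjusted p = 3.49e-06), and a second probe set, 1459657_s_at, fell too (from 3600.3 ± 433 to 1084 ± 272, adjusted p = 1.68e-06). The rise at the 2-cell stage (log2 change 0.88, adjusted p = 0.0165) was not shared by the second probe set (log2 change -0.45, adjusted p = 0.121) and missed the threshold without 1-cell replicate 1, 1-cell replicate 2 or 2-cell replicate 1 (adjusted p = 0.0801 to 0.0831; range over its alternatives 0.000382 to 0.121). The blastocyst rise was just inside the threshold (log2 change 0.77, adjusted p = 0.0493) and was lost without any single 8-cell array or blastocyst replicate 1, 2 or 4 (adjusted p = 0.0636 to 0.152; range over its alternatives 0.0149 to 0.152). The second probe set was called higher at that step too (log2 change 0.67, adjusted p = 0.0231). From 2-cell to 8-cell embryo the second probe set rose (log2 change 0.97, adjusted p = 0.000549). At that step 1447320_x_at was not called (log2 change -0.11, adjusted p = 0.8). Polr1a was too dim to test, with stage means from 15.9 in 1-cell embryos to 72.1 in blastocysts.

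Small-subunit assembly was the largest group, with 17 members of which 16 were tested. At the 1-cell stage 4 fell (25%, against 4.26% of all tested probe sets) and 1 rose (6.25%, against 2.67%), and at the 2-cell stage 6 rose (37.5%, against 12.2%) and 2 fell (12.5%, near the 9.34% of all). At the 8-cell stage 9 rose (56.2%, against 14.1%) and 0 fell (against 13.4%), and in the blastocyst 7 fell (43.8%, against 6.58%) and 0 rose (against 7.98%) in the limma fit. At an unadjusted p under 0.05, the 8-cell fallers still numbered 0 and the blastocyst risers 2, Bms1 and Utp23. Krr1, a processome factor bound near the small-subunit RNA, showed the full course. Its probe set 1420139_s_at read 1622, 1572, 1492 and 1633 on the oocyte arrays, 349, 254, 286 and 324 on the 1-cell arrays and 1614, 1904, 2196 and 1869.9 on the 2-cell arrays. The 8-cell arrays read 4145, 4471, 4783 and 3941 and the blastocyst arrays 3648, 2992, 2708 and 2607. No array of one stage overlapped the next stage, and the 2-cell arrays overlapped the oocyte arrays. Krr1 fell 4.98-fold at the 1-cell stage (log2 change -2.32, SE 0.15, adjusted p = 1.87e-10), rose 5.94-fold at the 2-cell stage (adjusted p = 1.85e-12) and 2.28-fold at the 8-cell stage (adjusted p = 7.18e-07), and fell into the blastocyst (log2 change -0.54, adjusted p = 0.0127). The blastocyst fall missed the threshold when only the arrays of those 2 stages were fitted (adjusted p = 0.0575; range over its alternatives 0.00476 to 0.596).

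Wdr3, a WD-repeat protein of the processome, read 634, 495, 635 and 486 in oocytes, 236, 220.0, 162 and 242 in 1-cell embryos, 2094, 2234, 3180.1 and 2061 in 2-cell embryos, 6468, 7038, 7374 and 8158 in 8-cell embryos and 5949.9, 4268, 2963 and 3775 in blastocysts. Each stage lay apart from the next one. The fall at the 1-cell stage was 2.48-fold (log2 change -1.31, SE 0.19, adjusted p = 5.28e-05) and the following rises were 10.2-fold (adjusted p = 2.07e-12) and 3.06-fold (adjusted p = 4.23e-07). Tbl3, another WD-repeat processome protein, read 377, 307, 478 and 361 in oocytes, 167, 164, 139.9 and 200.1 in 1-cell, 424, 450.4, 791 and 729 in 2-cell, 1642, 1596, 1319 and 1918 in 8-cell embryos and 662, 525, 649 and 827 in blastocysts. It peaked on the 8-cell arrays, all of which lay above every other array, and then fell 2.4-fold into the blastocyst (adjusted p = 6.83e-05), the largest called fall of a member at that step.

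Krr1, Wdr3 and Tbl3, with Pum3 and Nsun5 of the large-subunit group, were the 5 members that passed a test for a 1-cell dip. That test needs both the fall from the oocyte and the rise to the 2-cell stage, and uses the weaker one-sided p-value. It was set up after earlier results of these data had shown members low at the 1-cell stage. Its p-values for the members thus describe the dip on these same arrays and are no independent support for it. Of all tested probe sets 1.23% passed the test. Krr1 and Pum3 were read by s_at probe sets, and without the x_at and s_at probe sets 3 members passed. Pum3 has no other probe set and drops out there, and the second Krr1 probe set did not pass (adjusted p = 0.71). The mirror test for a 2-cell peak, which 1.44% of all tested probe sets passed, called 0 members in the limma fit. At an unadjusted p under 0.05 it held for Garre1, Nol9 and Rrn3 (adjusted p = 0.254 for Rrn3), and with quantile normalization it called 1, Garre1. Moderated tests for the dip gave adjusted p = 1.17e-10 for Krr1, 2.08e-07 for Pum3, 9.03e-05 for Wdr3, 0.00181 for Tbl3 and 0.00773 for Nsun5. A control probe set for 18S ribosomal RNA moved the other way on the same arrays, at 650.3 ± 197 in oocytes, 37007 ± 4510.1 in 1-cell embryos and 2004 ± 308 in 2-cell embryos (mean ± SD, n = 4). The 3′ and 5′ probe sets for 18S moved the same way, with lower 1-cell values. They read 822 ± 174 and 1102 ± 479 in oocytes, and 14487 ± 826 and 22840 ± 3096 in 1-cell embryos. In 2-cell embryos they read 2743 ± 1193 and 2169 ± 907. The part of 18S RNA in the 1-cell values of the members was not tested.

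**Figure D3:**
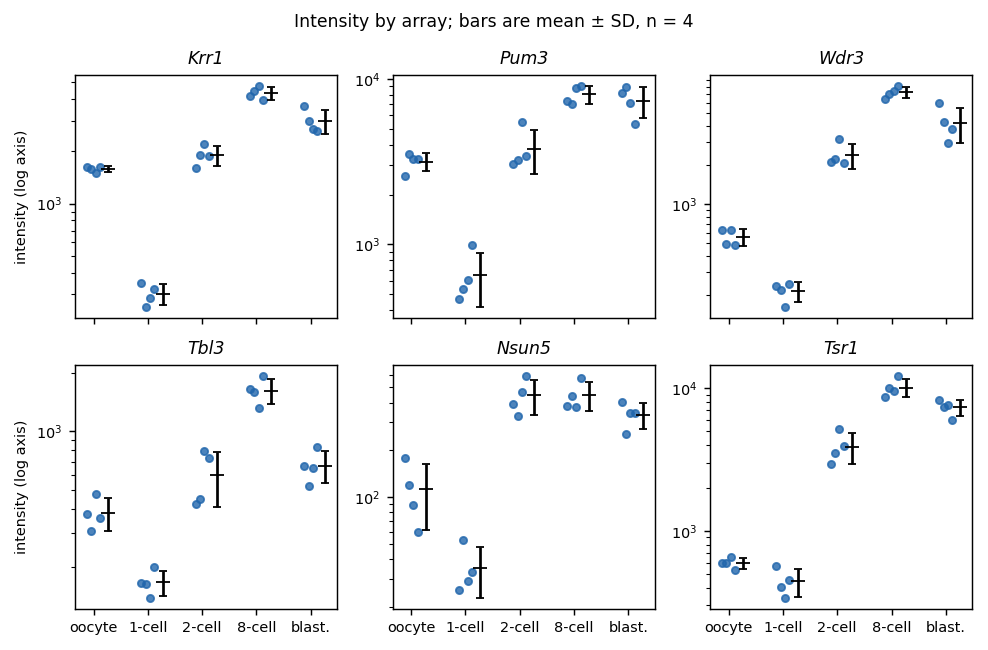
Intensity on a log axis for the 5 members with a 1-cell dip and for Tsr1, with 1 point per array and bars for the mean ± SD (n = 4). In Krr1, Pum3, Wdr3, Tbl3 and Nsun5 every 1-cell array lies below every oocyte array and every 2-cell array.

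Tsr1, a GTPase-like factor that joins late small-subunit precursors, had no fall at the 1-cell stage that passed the test (log2 change -0.44, adjusted p = 0.187) and then one of the largest rises. It read 568, 404, 339.9 and 454 on the 1-cell arrays, 2939, 3514, 5158 and 3958 on the 2-cell arrays and 8726, 10009, 9652 and 12158 on the 8-cell arrays. These stages did not overlap, and the changes were 8.44-fold (adjusted p = 3.32e-12) and 2.63-fold (adjusted p = 1.52e-06). Its blastocyst arrays, at 8256, 7422, 7688 and 6007, lay below all 8-cell arrays, but the difference did not pass the test (adjusted p = 0.0965).

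Bms1 and Noc4l were highest in oocytes. Bms1, the GTPase of the processome, read 17568, 22909, 22855 and 20963 in oocytes, 12482, 11407, 14443 and 18904 in 1-cell and 5696, 6580.4, 8202 and 6461 in 2-cell embryos. The 8-cell arrays read 7856, 8396, 9677 and 11337 and the blastocyst arrays 16034, 16738, 14901 and 10087. All 2-cell arrays lay below the 1-cell arrays, and the 1-cell and oocyte arrays overlapped. The 2-cell fall was 2.1-fold (log2 change -1.07, SE 0.22, adjusted p = 0.000688), which missed the threshold with quantile normalization (adjusted p = 0.0626; range over its alternatives 0.000183 to 0.0626). The lower blastocyst level against the oocyte (adjusted p = 0.0466) was lost without blastocyst replicate 3 or 4 or oocyte replicate 2, 3 or 4 (adjusted p = 0.0645 to 0.178; range over its alternatives 0.00219 to 0.178).

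Noc4l, the partner of the processome factor Nop14, read 4047, 3696, 6169.5 and 7094 in oocytes and 1598, 1363, 1355 and 1326 in 1-cell embryos on an x_at probe set. The stages did not overlap, and the fall was 3.56-fold (log2 change -1.83, SE 0.27, adjusted p = 4.17e-05). It did not return: stage means were 996 ± 389 in 2-cell embryos, 1439.8 ± 302 in 8-cell embryos and 1647 ± 571 in blastocysts, and no later step passed the test. Nol10, a processome-associated factor, alternated. Its stage means were 318 ± 81.1, 605 ± 93.1, 278 ± 38.3, 556 ± 95.99 and 328 ± 59.05 from oocyte to blastocyst. Each consecutive pair of stages lay apart, with a rise at the 1-cell stage (adjusted p = 0.00307), a fall at the 2-cell stage (adjusted p = 0.000164), a rise at the 8-cell stage (adjusted p = 0.000498) and a fall in the blastocyst (adjusted p = 0.0105).

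Among the rest of the group, Heatr1 (the Utp10 homologue) and Nol7, both processome proteins, rose at the 8-cell stage and fell in the blastocyst. Heatr1 averaged 217 ± 56.4 in 2-cell, 374 ± 43.99 in 8-cell embryos and 234 ± 11.2 in blastocysts. Its rise had an adjusted p of 0.00437, and its fall (0.0291) was lost without 8-cell replicate 2 or 4 or blastocyst replicate 1 or 4 (adjusted p = 0.0512 to 0.0891; range over its alternatives 0.0147 to 0.0891). It was higher in the blastocyst than in the oocyte (adjusted p = 0.015, but 0.0559 without oocyte replicate 3; range over its alternatives 0.00994 to 0.0902). Nol7 averaged 187 ± 67.7, 382 ± 112 and 191 ± 33.2 at those stages, with adjusted p = 0.00791 for the rise and 0.0237 for the fall, which was lost without 8-cell replicate 2 or blastocyst replicate 2 or 3 (adjusted p = 0.0539 to 0.1; range over its alternatives 0.0138 to 0.1). Rrp7a, a processome protein, rose from 205 ± 25.05 to 375 ± 101 at the 8-cell stage (adjusted p = 0.00578), while its second probe set, 1456814_at, was not called (log2 change 0.35, adjusted p = 0.626; range over the alternatives 0.000689 to 0.626). Its fall in the blastocyst (adjusted p = 0.049) was lost without 8-cell replicate 2, 3 or 4 or blastocyst replicate 1, 2 or 4 (adjusted p = 0.0817 to 0.169; range over its alternatives 0.00797 to 0.869).

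Nol11, which supports transcription of ribosomal DNA as part of the processome, averaged 90.1 ± 50.1 in 1-cell and 273 ± 117 in 2-cell embryos. It rose 2.73-fold (adjusted p = 0.000647), and later steps did not pass the test. Utp15 averaged 888 ± 45.7 in oocytes and 1087 ± 109 in blastocysts and was called at no step. Imp4, Utp11 and Utp25 likewise passed at no step, with stage means between 123 and 278 for Imp4, 23.3 and 74.9 for Utp11, and 181 and 277 for Utp25. Utp18 stayed too dim to test.

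Large-subunit assembly had 9 members, all tested. At the 1-cell stage 2 fell (Pum3 and Nsun5; 22.2%, against 4.26% of all tested probe sets) and 2 rose (Rrs1 and Nol8; 22.2%, against 2.67%). At the 2-cell stage 5 rose (55.6%, against 12.2%) and 1 fell (11.1%, against 9.34%). At the 8-cell stage 2 rose (22.2%, against 14.1%) and 1 fell (11.1%, against 13.4%), and 0 passed the limma test from 8-cell to blastocyst (against 7.98% higher and 6.58% lower). At an unadjusted p under 0.05, 3 were lower at that last step (Bop1, Nol9 and Rrs1) and 0 higher. Pum3, a PUF-family protein of large-subunit precursors, read 2585, 3515, 3278 and 3277 in oocytes, 468, 537, 611 and 988 in 1-cell and 3073, 3233, 5459 and 3397 in 2-cell embryos. It went on to 7358, 7012, 8833 and 9046 in 8-cell embryos and 8172, 8863, 7139 and 5296 in blastocysts. The 1-cell arrays lay below all others, and 8-cell arrays and blastocysts overlapped. Pum3 fell 4.91-fold at the 1-cell stage (log2 change -2.29, SE 0.22, adjusted p = 1.38e-07), rose 5.75-fold at the 2-cell stage (adjusted p = 3.74e-09) and 2.17-fold at the 8-cell stage (adjusted p = 0.000377).

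Nsun5, an RNA methyltransferase that modifies a cytosine of the large ribosomal RNA, read 178, 119.8, 89.6 and 59.9 in oocytes, 25.4, 53.5, 29.1 and 33.3 in 1-cell and 395, 328, 465 and 589.9 in 2-cell embryos. These stages did not overlap. Its fall was 2.29-fold (adjusted p = 0.00342; 0.0508 with only those 2 stages fitted, and 0.000962 to 0.0508 over its alternatives) and its rise 8.37-fold (log2 change 3.06, SE 0.26, adjusted p = 1.73e-09). Means of 445 ± 93.1 in 8-cell embryos and 336 ± 62.5 in blastocysts followed, with no later call.

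Rrs1, which recruits the 5S ribosomal RNA particle, rose at both early steps, reading 1187, 623, 631 and 748 in oocytes, 1621, 2178, 1811 and 1093 in 1-cell and 3462, 4243, 4119 and 4595 in 2-cell embryos on an x_at probe set. The oocyte and 1-cell arrays overlapped, while the 2-cell arrays lay above both. The rises were 2.09-fold (adjusted p = 0.0023) and 2.49-fold (adjusted p = 5.69e-05). Noc2l, a nucleolar complex protein, read 23.6, 35.4, 35.6 and 256 on the 1-cell arrays, where replicate 4 stood far above the other 3. The 2-cell arrays read 247, 333, 576 and 574 and the 8-cell arrays 1035, 1089.6, 1034 and 1265. The 2-cell rise was 5.48-fold (adjusted p = 5.37e-05), with 1-cell replicate 4 just above 2-cell replicate 1, and the 8-cell rise was 2.62-fold (adjusted p = 0.0113, but 0.0524 without 2-cell replicate 1; range over its alternatives 0.000706 to 0.0524). Without 1-cell replicate 4, Noc2l was also called lower at the 1-cell stage (adjusted p = 0.0107; range over its alternatives 0.0107 to 0.825).

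Nol9, a polynucleotide kinase that trims the large-subunit precursor, averaged 510.2 ± 53.8 in 1-cell and 1194 ± 171 in 2-cell embryos and rose 2.28-fold (adjusted p = 1.33e-05). Of its other 3 tested probe sets, 1432218_a_at rose at that step (adjusted p = 0.00088) and 1429338_a_at and 1453114_at were not called (adjusted p = 0.309 and 0.112). Nol8, an RNA-binding nucleolar protein, averaged 933 ± 121, 1536 ± 168, 972 ± 291, 551 ± 34.6 and 481 ± 137 from oocyte to blastocyst. Its 8-cell fall had an adjusted p of 0.00555 and its 2-cell fall 0.0127 (0.0716 without 2-cell replicate 3). Over the alternatives of the 2-cell fall the adjusted p ran from 2.91e-05 to 0.239. The 2.91e-05 was that of a rise on the dimmest tested probe set, 1452974_at (log2 change 1.23). The Nol8 rise at the 1-cell stage (adjusted p = 0.0274) was lost without 1-cell replicate 1, 2 or 4 or oocyte replicate 1, 3 or 4 (adjusted p = 0.0573 to 0.0798; range over its alternatives 0.00647 to 0.591). Noc3l, a partner of Noc2l, averaged 48.6 ± 12.9 in oocytes and 129 ± 20.04 in blastocysts and was called higher only in that comparison (adjusted p = 0.0142). Bop1, of the complex with Pes1 and Wdr12, and Nol12 passed at no consecutive step; Bop1 averaged 41.4 ± 30.96 in 1-cell and 123 ± 78.9 in 2-cell embryos (adjusted p = 0.0844).

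Dkc1, the pseudouridine synthase of the H/ACA particles and of telomerase, was the single member of its group. Its brightest probe set, 1438016_at, averaged 2863 ± 481 in oocytes, 4273 ± 459 in 1-cell embryos, 3062 ± 156 in 2-cell embryos, 4002 ± 372 in 8-cell embryos and 4079.9 ± 474 in blastocysts. It rose at the 1-cell stage (log2 change 0.59, adjusted p = 0.0221) and fell at the 2-cell stage (log2 change -0.47, adjusted p = 0.0336). The first was lost without 1-cell replicate 2 or 3 or oocyte replicate 2 (adjusted p = 0.0673 to 0.105; range over its alternatives 0.00786 to 0.105). The second was lost without 1-cell replicate 2 or 3 or 2-cell replicate 2, 3 or 4 (adjusted p = 0.0625 to 0.101). Over its alternatives the adjusted p ran from 5.69e-05 to 0.945. The 5.69e-05 was that of a rise on the dimmest tested probe set, 1441788_s_at (log2 change 2.16). Probe set 1438016_at was higher in the blastocyst than in the oocyte (adjusted p = 0.0115; 0.0611 without oocyte replicate 2; range over its alternatives 3.1e-06 to 0.731).

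The RNA exosome trims the ends of ribosomal RNA precursors, and 5 of its subunit genes were members. Exosc8, of the ring, read 2332, 2094, 2118 and 2029 on the 2-cell arrays, 3956, 3662, 3409 and 3433 on the 8-cell arrays and 6277, 6253, 5269 and 4903 on the blastocyst arrays. These stages lay apart, with a rise of 0.75 on the log2 scale (SE 0.15, adjusted p = 0.000337) and another of 0.64 (SE 0.15, adjusted p = 0.00317). Oocytes averaged 3160.1 ± 356 and 1-cell embryos 2656 ± 277, a difference that did not pass the test (adjusted p = 0.42). Exosc3, a cap subunit, averaged 509.5 ± 92.4, 495 ± 105 and 479 ± 62.6 through the 2-cell stage. It rose to 925 ± 137 in 8-cell embryos (adjusted p = 0.000436) and read 989 ± 205 in blastocysts. Exosc2, another cap subunit, averaged 95.2 ± 25.8 in oocytes and 36.3 ± 9.34 in 2-cell embryos with no call in the fit to all arrays. Exosc1 and Exosc6 were too dim to test, at means of at most 54.8 for Exosc1 and 41.6 for Exosc6.

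Some differences between consecutive stages that were not called passed the threshold once 1 array was left out. Without 1-cell replicate 4, Bms1 was lower at the 1-cell stage (adjusted p = 0.0475; range over its alternatives 0.000694 to 0.337) and Exosc2 lower at the 2-cell stage (0.0153; 0.0153 to 0.284). Nol7 was lower at the 1-cell stage without 1-cell replicate 3 (0.0173; 0.0173 to 0.263). At the 2-cell stage Bop1 was higher without 1-cell replicate 1 or 2-cell replicate 2 (0.0378 and 0.0355; 0.0338 to 0.278), and Noc3l was higher without 1-cell replicate 1 (0.0382; 0.0382 to 0.449). At the 8-cell stage Imp4 was higher without 8-cell replicate 4 (0.0261; 0.0261 to 0.627) and Noc4l without 2-cell replicate 3 (0.0471; 0.0203 to 0.39). In the blastocyst Bms1 was higher without blastocyst replicate 4 (0.0194; 0.0194 to 0.171), Bop1 lower without 8-cell replicate 1 or blastocyst replicate 2 (0.0475 and 0.0108; 0.0108 to 0.209) and Nol9 lower without blastocyst replicate 3 (0.0239; 0.0239 to 0.386).

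Of the 46 members, 17 had more than 1 probe set, and these did not always move together. Of 40 calls of a member with at least 1 other tested probe set, at least 1 other was called the opposite way in 3. In 15 more the direction was shared by another called probe set, and in 22 the others all missed the threshold. The opposite calls were Dkc1 at the 1-cell stage and at the 2-cell stage and Nol8 at the 2-cell stage. For Dkc1, 1438015_at rose from 2304 ± 152 to 5126 ± 1003 at the 1-cell stage (adjusted p = 0.000452) while 1441788_s_at fell from 302 ± 172 to 87.8 ± 28.4 (adjusted p = 0.0117) and rose to 453 ± 61.8 at the 2-cell stage (adjusted p = 5.69e-05). For Nol8, 1452974_at rose from 273 ± 23.3 to 669 ± 86.8 at the 2-cell stage (adjusted p = 2.91e-05) and 1428950_s_at from 463 ± 77.5 to 843 ± 69.2 (log2 change 0.85, adjusted p = 0.0048), where the brightest probe set fell; 2 of the 3 Nol8 probe sets thus moved against the call given for the gene.

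Utp23, a small-subunit processome factor, is given in detail because its probe sets differed widely in the size of the change; it was chosen after its values were seen. The brightest, 1435806_at, rose from 222 ± 13.6 in 1-cell to 341 ± 36.8 in 2-cell embryos (log2 change 0.58, adjusted p = 0.0231). This call was lost without 1-cell replicate 3 or 2-cell replicate 1 or 3 (adjusted p = 0.0549 to 0.0659; range over its alternatives 3.03e-07 to 0.148). The other 3 probe sets had larger log2 changes, and 1447704_s_at, dimmer on the mean log2 level, was the brighter one at the 2-cell and 8-cell stages. Probe set 1447704_s_at went from 36.3, 22.9, 20.4 and 56.6 to 1308, 1502, 2090.4 and 2199 (log2 change 5.07, SE 0.27, adjusted p = 5.9e-13). Probe sets 1455259_a_at and 1429937_at rose by 3.31 (adjusted p = 3.03e-07) and 1.56 (adjusted p = 2.83e-05) on the log2 scale. From 2-cell to 8-cell embryo only the brightest was called (log2 change 0.67, adjusted p = 0.00643; range over its alternatives 0.00148 to 0.6). At that step 1447704_s_at, 1455259_a_at and 1429937_at had log2 changes of -0.44, -0.31 and -0.16 (adjusted p = 0.253, 0.6 and 0.68). From 8-cell embryo to blastocyst, 1447704_s_at and 1455259_a_at fell (adjusted p = 0.0387 and 0.0414), where the brightest did not (log2 change 0.41, adjusted p = 0.15).

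The second probe set of Krr1, 1444726_at, was dim. It averaged 56.4 ± 22.9 in oocytes and 30.9 ± 8.21 in 1-cell embryos, a difference that did not pass the test (log2 change -0.56, adjusted p = 0.317), and it rose at the 2-cell (adjusted p = 0.038) and 8-cell (adjusted p = 0.00163) stages as the brightest did. The second Tbl3 probe set, 1447660_at, stayed between 60.6 and 76.3 with no call. The second Utp15 probe set, 1454846_at, fell at the 2-cell stage (log2 change -0.74, adjusted p = 0.0134) and rose at the 8-cell stage (log2 change 0.999, adjusted p = 0.000881).

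**Figure D4:**
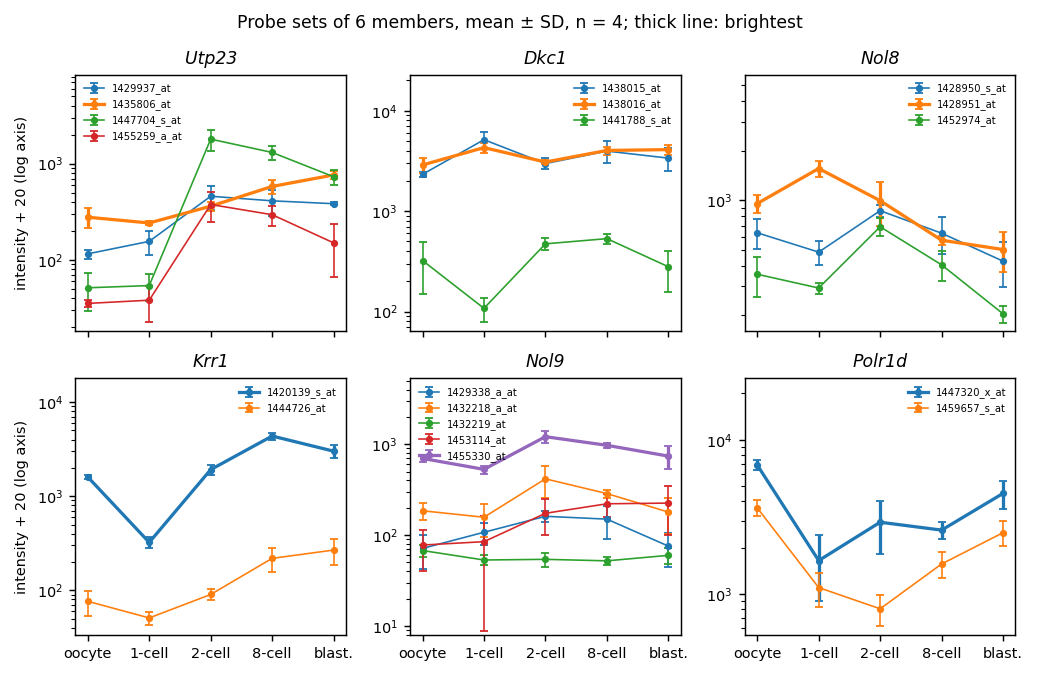
Mean ± SD (n = 4) of intensity + 20 on a log axis for every probe set of 6 members with more than 1, by stage; the thick line is the brightest by mean log2 level over all arrays. For Utp23 the other 3 probe sets rise more between the 1-cell and 2-cell stages than the thick line, and 1447704_s_at lies above it at the 2-cell and 8-cell stages, and for Dkc1 1441788_s_at runs opposite to the others from oocyte to 2-cell embryo.

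The 11 members with roles elsewhere are described here for completeness; 10 were tested. Garem1, an adaptor of growth factor signalling, read 744, 652, 926 and 752 in oocytes, 1816, 1725, 1609 and 1520.3 in 1-cell and 903, 634, 703 and 826 in 2-cell embryos. The 8-cell arrays read 69.4, 90.1, 133 and 12.5 and the blastocyst arrays 961, 747, 629 and 1057. The 8-cell arrays lay far below all others, with a log2 change of -3.22 from the 2-cell stage (adjusted p = 5.23e-09) and of 3.35 to the blastocyst (adjusted p = 1.24e-08). A dimmer probe set of Garem1 was called at neither step (adjusted p = 0.933 and 0.616), and the rise at the 1-cell stage was lost without 1-cell replicate 1 or 2 or oocyte replicate 2 or 4 (adjusted p = 0.0503 to 0.0652; range over its alternatives 0.000319 to 0.869). Nol4 fell at the 2-cell stage from 759.7 ± 166 to 85.4 ± 76.4 (log2 change -3.18, adjusted p = 1.37e-06), and was lower in the blastocyst than in the oocyte (adjusted p = 8.8e-09). A dimmer probe set, 1430189_at, was called at neither (adjusted p = 0.939 and 0.75; ranges over the alternatives 2.19e-08 to 0.939 and 6.12e-10 to 0.75). On the brightest probe set the 1-cell and 2-cell arrays did not overlap, and the blastocyst mean was 15.4 ± 4.82.

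Garre1, a Rac1 effector, averaged 2765 ± 663 in 2-cell and 764 ± 99.8 in 8-cell embryos and fell (log2 change -1.81, adjusted p = 4.15e-08), and its other 2 probe sets fell at the same step. Gart, an enzyme of purine synthesis, rose at the 2-cell (adjusted p = 0.0041) and 8-cell (adjusted p = 0.000211) stages, from 210.1 ± 47.2 to 351 ± 36.7 and then 688 ± 93.4. Nol4l, related to Nol4, rose at the 1-cell stage (adjusted p = 0.0123; 0.0555 without oocyte replicate 2; range over its alternatives 0.00397 to 0.499) and fell in the blastocyst (log2 change -1.13, adjusted p = 0.000393). Its 2-cell fall (adjusted p = 0.0316) was lost without any 1 of 5 arrays, namely 1-cell replicate 1, 2 or 3 or 2-cell replicate 3 or 4 (adjusted p = 0.0715 to 0.123; range over its alternatives 0.00951 to 0.556).

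The mitochondrial methyltransferase Nsun3 fell at the 8-cell stage from 286 ± 28.8 to 130.2 ± 48.00 (adjusted p = 0.000346). Its other 2 tested probe sets, 1436735_at and 1444634_at, were not called at that step (adjusted p = 0.0613 and 0.398; range over the alternatives 5.02e-05 to 0.398). Nsun7 rose at the 2-cell stage (adjusted p = 0.0428), a call lost without 1-cell replicate 1 or 2 or 2-cell replicate 2, 3 or 4 (adjusted p = 0.0867 to 0.142; range over its alternatives 0.0212 to 0.98). Nsun4, a methyltransferase of mitochondrial ribosomes, and Garem2 and Garnl3 passed at no consecutive step with all arrays; Garnl3 was lower at the 8-cell stage without 8-cell replicate 2 (adjusted p = 0.0086; range over its alternatives 0.0086 to 0.312), Nsun4 higher at the 2-cell stage without 1-cell replicate 2 (0.0339; 0.0339 to 0.372), and Nsun3 higher in the blastocyst without 8-cell replicate 1 (0.043; 0.043 to 0.44). Nol3, at stage means of at most 34.6, was too dim to test. The next counts cover all 41 tested members, these 10 included. The 1-cell step had 6 called rises (14.6%, against 2.67% of all tested probe sets) and 7 falls (17.1%, against 4.26%). The 2-cell step had 15 rises (36.6%, against 12.2%) and 7 falls (17.1%, against 9.34%). The 8-cell step had 14 rises (34.1%, against 14.1%) and 5 falls (12.2%, against 13.4%). Into the blastocyst, 3 rose (7.32%, against 7.98%) and 9 fell (22.0%, against 6.58%). Without 1-cell replicate 2 or oocyte replicate 2 the count higher at the 1-cell stage was 3, and without 2-cell replicate 3 the count lower at the 2-cell stage was 4. Quantile normalization gave 4 higher and 8 lower at the 1-cell stage and 15 higher and 2 lower at the 2-cell stage. Centring on the median gave 12 and 10 at the 2-cell stage. For these scalings, here and above, no share of all tested probe sets is given to read the counts against.

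Genes of the pathway outside the name rule were read from a list of 117 factors, of which 42 were on the array and 35 tested. At the 1-cell stage 1 rose (2.86%, against 2.67% of all tested probe sets) and 6 fell (17.1%, against 4.26%). At the 2-cell stage 14 rose (40%, against 12.2%) and 6 fell (17.1%, against 9.34%). At the 8-cell stage 13 rose (37.1%, against 14.1%) and 3 fell (8.57%, against 13.4%), and in the blastocyst 1 rose (2.86%, against 7.98%) and 5 fell (14.3%, against 6.58%). The median log2 change over the 42 was -0.06, 0.41, 0.54 and -0.25 at these steps. The largest called falls at the 1-cell stage were in Fcf1, a nuclease-fold processome protein (log2 change -2.25, adjusted p = 7.72e-06), the RNase P and MRP subunit Rpp40 (-1.58, adjusted p = 0.00032) and the zinc finger protein Zfp593 (-1.41, adjusted p = 0.0322), and Urb1 was the 1 that rose (1.05, adjusted p = 0.0124).

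At the 2-cell stage Zfp622, a late large-subunit factor, rose from 22.3 ± 7.19 to 905 ± 143 (adjusted p = 2.48e-13). Rpp40 rose from 59.4 ± 44.3 to 1453 ± 98.3 (adjusted p = 7.64e-12) and Rbm34 from 15.5 ± 12.5 to 669 ± 148 (adjusted p = 1.51e-11). Of the 3 RIO kinases, which act in late small-subunit maturation, 2 fell: Riok2 from 254 ± 31.7 to 56.8 ± 8.57 (adjusted p = 3.3e-07) and Riok1 from 1688 ± 478 to 474 ± 85.2 (adjusted p = 7.13e-06). Riok3 averaged 3627 ± 473 and 2775 ± 827 at these stages (log2 change -0.42, adjusted p = 0.116). The largest called rises at the 8-cell stage were in Zfp593, Sdad1 and nucleolin (Ncl), by 3.18, 1.65 and 1.62 on the log2 scale (adjusted p = 1.04e-06, 2.22e-06 and 0.0115). The Ncl probe set was dim, at 42.3, 13.3, 10.6 and 5.4 on the 2-cell arrays. It read 153.8, 131.5, 116.6 and 20.4 on the 8-cell arrays, so these stages overlapped (SE 0.47).

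Only 4 cytosolic ribosomal protein genes were matched by symbol, and 3 were tested: Rpl22, Rps3 and the paralogue Rpl7l1. All 3 rose at the 2-cell and again at the 8-cell stage. Rpl22 averaged 5431 ± 979 in oocytes, 961 ± 172 in 1-cell, 5354 ± 813 in 2-cell, 36517 ± 6837 in 8-cell embryos and 30663 ± 6988 in blastocysts, on an s_at probe set, and was the 1 of the 3 that fell at the 1-cell stage (adjusted p = 1.94e-08). Rps3 averaged 10.9 ± 4.15 in 1-cell, 118 ± 24.8 in 2-cell and 1823 ± 111 in 8-cell embryos (adjusted p = 4.91e-07 and 2.78e-11).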

How the data were processed

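Oocytes and embryos of 4 stages were measured on 20 one-colour MOE430B arrays, 4 per stage. The authors deposited 1 linear intensity per probe set and array. The values look scaled to a common trimmed mean, but the summarization software and scaling are not given in the sources that were used. Per the labels' descriptions, total RNA went through 2 rounds of in vitro transcription.

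Of 22575 probe sets, 64 controls were set aside. The submitters' platform annotation gave 1 symbol for 14661, several for 245 and none for 7605; 14486 of the symbols were found in the gene table of GRCm38.p6. Values were analysed as log2(intensity + 20), so fold changes of dim probe sets are understated. Probe sets at or above 82.6 on at least 4 arrays entered 1 limma 3.58.1 fit over the 5 stages (R 4.3.3, eBayes with an intensity trend, Benjamini-Hochberg over 15234 probe sets). Adjusted p-values in the text are from this moderated test unless an alternative is named. No detection calls were used.

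The members and lists were chosen with earlier results of these data known. The genes named first were, per consecutive comparison, the 6 largest called rises and falls with stages that did not overlap, members with a called dip or peak, and the 2 members with the highest mean per role; others named are said to be chosen later or are given to account for every member. Same-numbered replicates were compared across stages: over 40 pairs the correlation of deviations ran from -0.06 to 0.06 and 0 exceeded 0.1, so the numbers do not pair the arrays. No 2 arrays were copies, as at least 99.7% of values differed. The number of arrays limits the precision, and an exact permutation test of 4 arrays against 4 cannot go below 0.0286. The GC box was added to the promoter search after the data were seen. Alternatives changed the pseudocount, filter, scaling, intensity trend, array weights, stages fitted, replicate block, probe set and symbols, and left out each array in turn. The fit was tested on simulated data.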

Additional observations from a re-analysis of the deposited data

Results flagged for a closer look

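Among 27 members named by the rule, each with 5 stages of 4 arrays, 6 of 135 groups held 1 array far from the other 3, where chance alone gives about 1 in 20, or 6.75. Exosc2 read 56.6 on oocyte replicate 4, against 106.7 to 109.1 on the others. Noc2l read 256.0 on 1-cell replicate 4, against 23.6 to 35.6. Noc4l read 1598.1 on 1-cell replicate 1, against 1325.7 to 1362.8. Nol4 read 514.2 on 1-cell replicate 4, against 800.5 to 864.5. Nol4l read 616.6 on 8-cell replicate 1, against 404.6 to 423.5. Nsun3 read 211.2 on oocyte replicate 3, against 277.9 to 289.8.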

How the results depend on the processing

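Of 205 pairs of a tested member and a comparison, 88 were called, and 51 of these kept their direction and side of the threshold under 13 alternatives and under leaving out each array. The following counts moved by over 1.5 times. Members higher at the 1-cell stage numbered 3 to 5 with single arrays left out, and the ribosome-making ones 2 to 3; the latter were 2 with no intensity trend, with quantile normalization and with the dimmest tested probe set. Members and ribosome-making members lower there were 3 without x_at and s_at probe sets. At the 2-cell stage members lower were 2 with quantile normalization, 3 with the dimmest probe set and 4 to 8 with single arrays left out; the ribosome-making ones were 1 with quantile normalization and 2 to 5 with single arrays left out. At the 8-cell stage members lower were 3 with the dimmest probe set, and the ribosome-making ones were 1 without the filter, with no intensity trend, with only the 2 stages fitted, with quantile normalization and with the replicate block, and 1 to 2 with single arrays left out. In the blastocyst against the 8-cell embryo ribosome-making members higher were 1 with array weights, without the filter, with no intensity trend, with a pseudocount of 5, with the replicate block and without x_at and s_at probe sets, and 1 to 2 with single arrays left out; those lower were 5 to 9 with single arrays left out. Ribosome-making members lower in the blastocyst than in the oocyte were 1 without x_at and s_at probe sets. Members with a 1-cell dip were 3 without x_at and s_at probe sets, and members with a 2-cell peak were 1 with quantile normalization and 1 with the dimmest probe set. Counts without x_at and s_at probe sets leave out the members that only such probe sets read.

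With the dimmest tested probe set 13 log2 changes reversed: Dkc1 in 1-cell embryos (-1.44), in 2-cell embryos (2.16) and in the blastocyst against the oocyte (-0.19), Garem1 at the 2-cell stage (0.35) and in the blastocyst against the 8-cell embryo (-0.41), Krr1 (0.28) and Rrp7a (0.17) in the blastocyst against the 8-cell embryo, Nol8 in 1-cell (-0.24) and 2-cell embryos (1.23), Polr1d at the 2-cell stage (-0.45), Tbl3 at the 2-cell stage (-0.13) and in the blastocyst against the oocyte (-0.27), and Utp23 at the 8-cell stage (-0.31). Krr1 read the same 0.28 without x_at and s_at probe sets. The cause was not tested. The replicate block gave 6 higher and 7 lower members from oocyte to 1-cell, then 14 and 7, 14 and 4, and 2 and 8 at the following steps. The correlations of each array's deviations with the arrays of other stages were also averaged by replicate number. For 4 of 20 arrays the highest average was that of their own number, so the numbers are not read as pairs. Median centring moved the median log2 change of all tested probe sets at the 2-cell stage from 0.07 to -0.11. Dim probe sets have little signal over background, and the tested members include none below the filter.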
